A study of Homo sapiens with 10 samples.

Results

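The subunits of the oxidative phosphorylation complexes were examined in RNA-seq of untreated cultures of EA.hy926 and HMEC-1, which are human endothelial lines. Members were the protein-coding genes of the count table whose symbol in GENCODE 44 begins with MT-, UQCR or ATP5, is SDHA to SDHD, begins with COX and a digit from 4 to 8, or is NDUF with A, B, C, S or V and a number. This rule, which uses no measured value, found 100 genes of 60448 listed, of which 19578 are protein-coding. Of these, 13 lie on the mitochondrial genome and 87 in the nucleus. The complexes are given by the established names, and NDUFA4 is counted with complex IV, where its protein sits.

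EA.hy926 carries genetic material of an endothelial and a lung carcinoma parent (A549). HMEC-1 was made from endothelial cells of skin microvessels and owes its unlimited growth to SV40 large T antigen. Both carry the labelled genotype WT and were grown to a confluent monolayer, with 5 independently cultured libraries each, so p-values measure the spread between cultures of 1 line. EA.hy926 grew in Advanced DMEM with 5% FBS and HMEC-1 in MCDB 131 with 10% FBS, epidermal growth factor at 10 ng/mL and hydrocortisone at 1 μg/mL, and therefore line and medium cannot be told apart. Each line is a single established culture and stands for itself rather than for a vessel type.

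Total counts were 33391640 to 43877224 per library. TMM factors, which scale a library by its typical gene, ran from 0.942 to 0.964 (EA.hy926) and from 1.04 to 1.05 (HMEC-1). CPM is the count per 1000000 of the TMM-scaled library size, and a log2 fold change (log2FC) is EA.hy926 over HMEC-1, so a negative value is a lower level in EA.hy926. Endothelial markers were found in both lines (PECAM1 1633 against 254 CPM, CDH5 1268 against 441 CPM), with summed levels of 6332 to 7072 CPM against 2145 to 2217 CPM. In EA.hy926, 11 of 14 were higher (78.6%) and 2 lower (14.3%), beside 42.6% and 43.3% of all 16310 genes tested. Their log2FC ran from −10.3 (EMCN) to 5.28 (ESAM). EMCN had 0 to 2 counts per EA.hy926 library. Of 8 epithelial markers, 6 were tested, with 4 higher (66.7%) and 2 lower (33.3%) and sums of 1275 to 1389 CPM against 425 to 487 CPM. The log2FC of epithelial markers ran from −4.71 (KRT19) to 4.83 (KRT8), and CDH1 and ESRP1 were at or near 0. Of 7 fibroblast and mural markers, 5 were tested, with sums of 6.74 to 8.61 CPM against 473.7 to 503.5 CPM, and DCN and LUM had no count. Of the 5, 1 was higher (20%, ACTA2 at 2.68) and 4 lower (80%), the lowest COL1A2 at −11.3. Of 6 leukocyte and red cell markers, CD14 alone was tested and was lower, with sums of 0.108 to 0.189 CPM against 0.629 to 1.15 CPM and no count for HBA1. The part of these markers in the results on subunits was not tested.

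Oxidative phosphorylation takes electrons from NADH at complex I (NADH dehydrogenase) and from succinate at complex II (succinate dehydrogenase), passes them through ubiquinone, complex III and cytochrome c to complex IV (cytochrome c oxidase), and uses the proton gradient built on the way to make ATP at complex V (ATP synthase). All these complexes except complex II combine subunits read from mitochondrial DNA, which is transcribed as long polycistronic RNAs and cut into single transcripts, with subunits read from nuclear genes and imported. Endothelial cells are known to draw much of their ATP from glycolysis, and their mitochondria are also studied as a calcium store and a source of signals.

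Nuclear-encoded subunits were mostly lower in EA.hy926, by small amounts, whereas mitochondrial-encoded subunits were split. Of the 87 nuclear members, 79 passed the filter on low counts, and of these 47 were lower, 16 higher and 16 not called at an adjusted p under 0.05. Among all 16310 genes tested, 43.3% were lower and 42.6% higher, against 59.5% and 20.3% of the nuclear members. The median log2FC was −0.24 over the nuclear members, −0.01 over all genes tested, and the nuclear members' quartiles were −0.53 and 0.05. All 13 mitochondrial members were tested, with 4 higher, 4 lower and 5 not called and a median log2FC of 0.01. Without EA.hy926 replicates 4 and 5, which stood apart for some of them, 3 were higher and 3 lower. Without TMM scaling, on library totals alone, the split over all libraries was 1 higher and 6 lower, and the median of all genes moved by −0.13. Of all 92 members tested, 67 differed by less than 0.5 in log2FC in either direction, beside 6637 of all 16310 genes tested.

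At an adjusted p under 0.05 with an absolute log2FC over 1, 7 members were lower in EA.hy926 and none higher, where 16.4% of all genes tested were lower and 19.1% higher. DESeq2 and limma-voom also placed 7 and 0 members there. They were COX7A1, COX6B2, ATP5IF1, NDUFB6, ATP5MF, NDUFS1 and NDUFA6, which take in 2 tissue-restricted forms of complex IV subunits, the inhibitor protein of ATP synthase, and ordinary subunits of complexes I and V. The 20 members that were higher at the adjusted p alone reached at most a log2FC of 0.81.

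**Figure D1:**
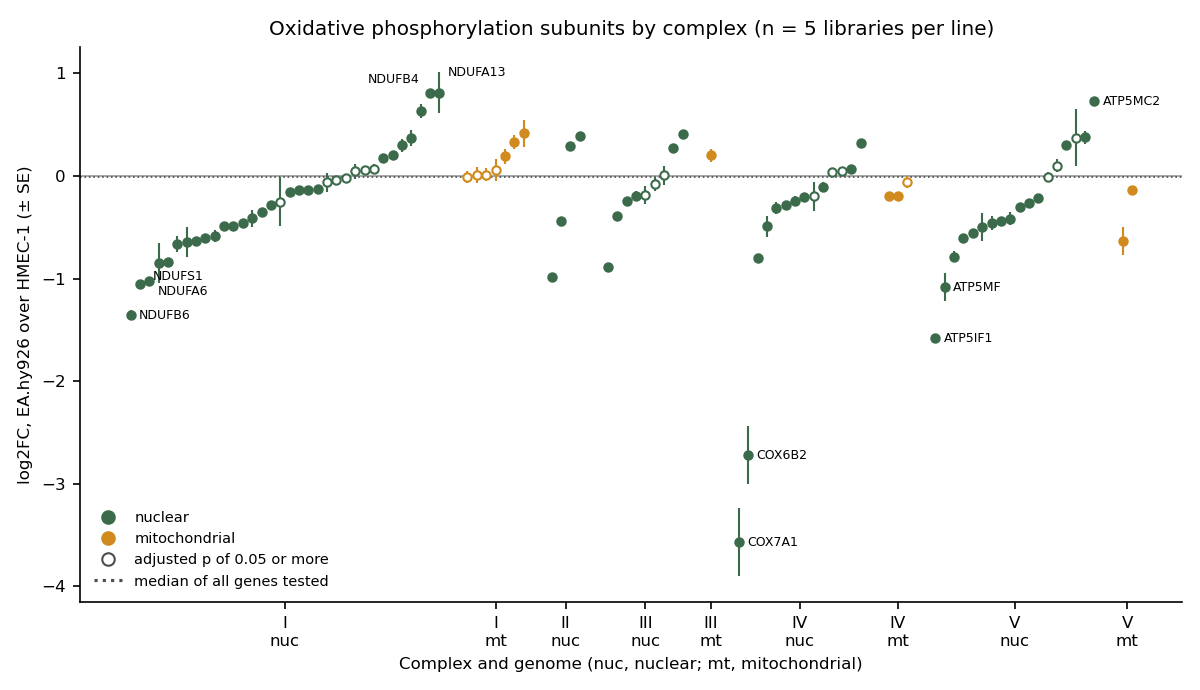
Each point is a tested subunit gene, sorted by log2FC (EA.hy926 over HMEC-1, with its SE) within its complex and genome, filled where the adjusted p was under 0.05. Nuclear members run from −3.57 (COX7A1) to 0.81 (NDUFA13), while all mitochondrial members but MT-ATP8 stay within 0.5 of 0.

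The mitochondrial genome encodes 7 subunits of complex I, 1 of complex III, 3 of complex IV and 2 of complex V. With TMM scaling, transcripts of complexes I and III were called higher or not called in EA.hy926, and those of complexes IV and V lower or not called. On library totals this split did not hold. There the log2FC of MT-ND5, of complex I, was −0.14 and called lower (adjusted p = 0.0216), and of the genes higher with TMM only MT-ND2 was called. MT-ND2, a membrane-arm subunit of complex I, had 1072, 928, 1043, 1316 and 1171 CPM in EA.hy926 replicates 1 to 5 and 802, 831, 865, 878 and 1012 CPM in those of HMEC-1. The lines overlapped only between EA.hy926 replicate 2 and HMEC-1 replicate 5. Its log2FC was 0.33 ± 0.07 (SE, adjusted p = 0.000121).

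MT-ND3, a small subunit at the junction of the arms of complex I, had 396, 360, 438, 658 and 647 CPM in EA.hy926, while HMEC-1 had 350, 465, 317, 341 and 403 CPM. EA.hy926 replicates 4 and 5 were above every other library, and the other 3 lay within the HMEC-1 range. The log2FC of MT-ND3, 0.41 ± 0.13 (adjusted p = 0.00685), was 0.10 (adjusted p = 0.296) without these 2 libraries. MT-ND1, which helps to form the quinone site, was called higher with a log2FC of 0.19 ± 0.07 (adjusted p = 0.0184), with 967, 858, 844, 712 and 747 CPM against 686, 615, 758, 711 and 846 CPM. Here EA.hy926 replicates 4 and 5 were the lowest of their line, and the ranges overlapped. The call on the log2FC of MT-ND1 was lost on leaving out EA.hy926 replicate 1, HMEC-1 replicate 1 or HMEC-1 replicate 2, with adjusted p of 0.0589, 0.0661 and 0.09, and also with DESeq2 (adjusted p = 0.0887). On library totals the log2FC of MT-ND1 was 0.05 (adjusted p = 0.468) and the log2FC of MT-ND3 was 0.28 (adjusted p = 0.0557).

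MT-CYB, cytochrome b of complex III, had 1182, 1036, 1105, 988 and 972 CPM in EA.hy926, while HMEC-1 had 848, 794, 958, 920.0 and 1074 CPM. All but HMEC-1 replicate 5 lay under the EA.hy926 range, and the log2FC was 0.20 ± 0.06 (adjusted p = 0.0047). On library totals the log2FC of MT-CYB was 0.07 and not called (adjusted p = 0.31). The other complex I genes, MT-ND4, MT-ND4L, MT-ND5 and MT-ND6, had log2FC of −0.01 to 0.06 and adjusted p of 0.603 to 0.918. MT-ND6, the subunit encoded on the light strand, ran from 266 to 337 CPM in EA.hy926 and from 245 to 367 CPM in the other line.

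For complex IV, the catalytic subunit MT-CO1 had 4701, 4140, 4386, 4377 and 4198 CPM in EA.hy926, while HMEC-1 had 4681, 4579, 5198, 5045 and 5443 CPM. Only EA.hy926 replicate 1 reached the HMEC-1 range, and the log2FC was −0.19 ± 0.04 (adjusted p = 0.000157). MT-CO3 had 1682, 1506, 1610.0, 1592 and 1579 CPM against 1712, 1762, 1752, 1808 and 2102 CPM, with no overlap and a log2FC of −0.20 ± 0.04 (adjusted p = 0.000227). MT-CO2, which takes the electrons from cytochrome c, was not called at −0.06 ± 0.06 (adjusted p = 0.332). On library totals without TMM scaling the log2FC of MT-CO2 was −0.20 (adjusted p = 0.00484) and was called.

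For complex V, MT-ATP6, a proton channel subunit, had 838, 795, 811, 774 and 780 CPM in EA.hy926, while HMEC-1 had 808, 844, 882, 871 and 994 CPM, with a log2FC of −0.14 ± 0.04 (adjusted p = 0.00322). EA.hy926 replicates 1 and 3 reached the HMEC-1 range. Without EA.hy926 replicates 4 and 5 the log2FC of MT-ATP6 was −0.10 (adjusted p = 0.0521). MT-ATP8 was counted at 3.22, 2.59, 2.9, 1.9 and 2.83 CPM in EA.hy926, while HMEC-1 had 3.82, 3.48, 4.51, 3.73 and 5.29 CPM. These are 73 to 119 and 134 to 208 counts per library, without overlap between the lines, and the log2FC was −0.63 ± 0.14 (adjusted p = 0.000214).

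**Figure D2:**
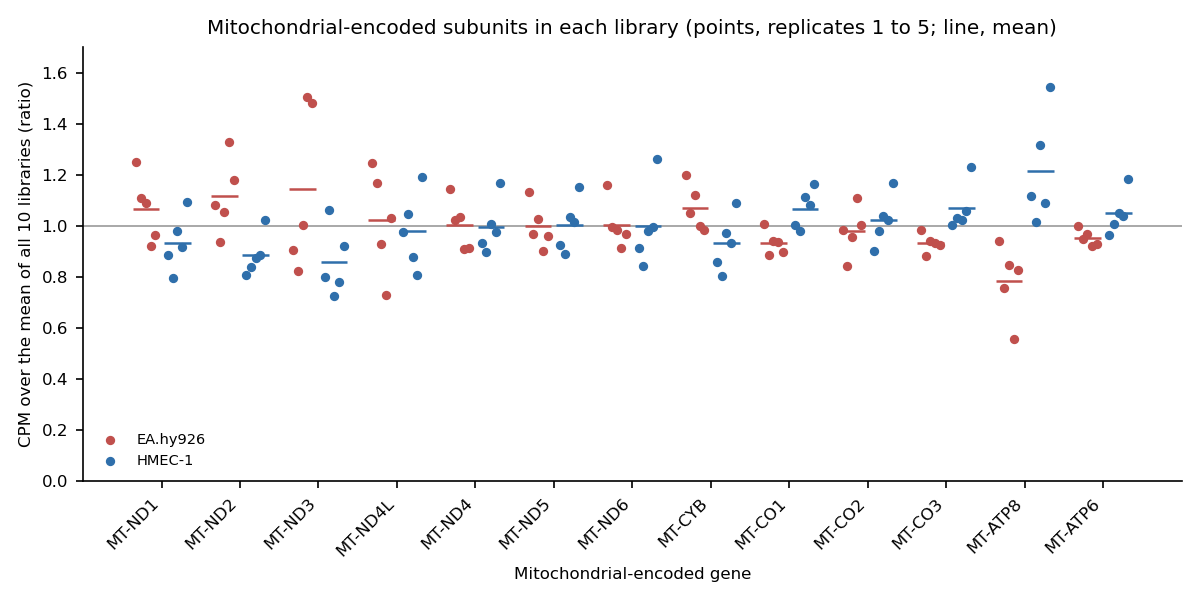
Each point is the CPM of a mitochondrial-encoded gene in 1 library, divided by the mean of that gene over all 10 libraries, with replicates 1 to 5 from left to right within a line and a bar for the line's mean. EA.hy926 replicates 4 and 5 are high in MT-ND3 and low in MT-ND1, and the lines are apart for MT-CO3 and MT-ATP8.

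MT-ATP8 and MT-ATP6 are read from a shared transcript and overlap on the genome at chrM:8527-8572 (GRCh38, plus strand, exonic and coding in both genes), which is shown here because it bears on how reads can be assigned. In the stretch chrM:8515-8584 below, capitals mark the 46 bases that both genes hold.
MT-ATP8 and MT-ATP6: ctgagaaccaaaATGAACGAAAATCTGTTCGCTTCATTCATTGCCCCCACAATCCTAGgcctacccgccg
Stop codons left out, the overlap is 21.1% of the coding bases of MT-ATP8 and 6.79% of those of MT-ATP6. MT-ND4L and MT-ND4 share 7 bases at chrM:10760-10766, printed with 12 bases on each side.
MT-ND4L and MT-ND4: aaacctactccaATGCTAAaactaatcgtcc
A read that falls on 2 genes can be left out or split by a counting program, and the setting used is not given in the sources used here. The mean of MT-ATP8 was 2.69 against 4.17 CPM and that of MT-ATP6 799.5 against 879.8 CPM, so the level of MT-ATP8 is uncertain and its difference rests on few reads.

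Reads of mitochondrial genes can also fall on nuclear copies of mitochondrial DNA. Of such copies on chromosome 1, MTATP6P1 had 66.2 to 88.7 CPM in EA.hy926, while HMEC-1 had 161 to 227 CPM, MTND2P28 had 69.4 to 94.5 and 53.0 to 63.1 CPM, and MTCO1P12 had 10.5 to 11.9 and 10.8 to 13.3 CPM. MTATP6P1 was 9.86 ± 1.11 per 100 of MT-ATP6 in EA.hy926 against 20.4 ± 1.73 per 100 in HMEC-1 (SD, n = 5), without overlap. Added together, MT-ATP6 and MTATP6P1 came to 840 to 927 CPM in EA.hy926, while HMEC-1 had 980.3 to 1221 CPM, which do not overlap. MT-ND2 with MTND2P28 came to 997 to 1410 and 857 to 1075 CPM, which overlap as MT-ND2 alone does. Which of these reads came from which genome was not tested.

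Ratios within a library do not depend on its scaling. The 7 MT-ND genes together had 0.877, 0.881, 0.846, 0.802 and 0.846 counts per count of the 3 MT-CO genes in EA.hy926 against 0.706, 0.692, 0.689, 0.685 and 0.734 in HMEC-1. Every EA.hy926 library was above every HMEC-1 library, with means of 0.85 ± 0.032 and 0.701 ± 0.02 (SD, n = 5). The ratio of MT-CYB to MT-CO1 was 0.226 to 0.252 in EA.hy926 against 0.173 to 0.197 in HMEC-1, and that of MT-ND2 to MT-CO1 was 0.224 to 0.301 and 0.166 to 0.186, also apart. The ratio of MT-ATP6 to MT-CO1, at 0.177 to 0.192 and 0.17 to 0.184, and of MT-ND6 to MT-ND5, at 0.241 to 0.259 and 0.238 to 0.276, overlapped. These ratios were picked after the values were seen and are a description.

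As a share of all counts, the mitochondrial members took 1.63%, 1.45%, 1.53%, 1.54% and 1.51% in EA.hy926 against 1.6%, 1.59%, 1.75%, 1.71% and 1.96% in HMEC-1. The ranges overlapped at their ends. The nuclear members took 0.594% to 0.63% in EA.hy926 against 0.698% to 0.754% in HMEC-1, which do not overlap. These are shares of unscaled totals. In TMM-scaled CPM summed by complex, the nuclear members of complex I were apart, at 1448 to 1552 against 1707 to 1846 CPM. The sums overlapped for complex II (402 to 435 against 422 to 435 CPM), complex III (765 to 811 against 786 to 872 CPM), complex IV (1118 to 1227 against 1207 to 1372 CPM) and complex V (2479 to 2611 against 2511 to 2734 CPM). There were 2.52 ± 0.158 mitochondrial counts per nuclear count in EA.hy926 against 2.42 ± 0.269 in HMEC-1 (SD, n = 5), with ranges of 2.31 to 2.73 and 2.11 to 2.8. In bulk libraries a smaller share of a transcript and a larger amount of other RNA cannot be told apart, nor can fewer expressing cells and less RNA per cell. Libraries were made from RNA selected with oligo(dT), which keeps transcripts by their poly(A) tail, and mitochondrial transcripts carry short or no tails. Levels of mitochondrial genes relative to nuclear genes, and the ratios between mitochondrial genes given above, hold only for this preparation.

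**Figure D3:**
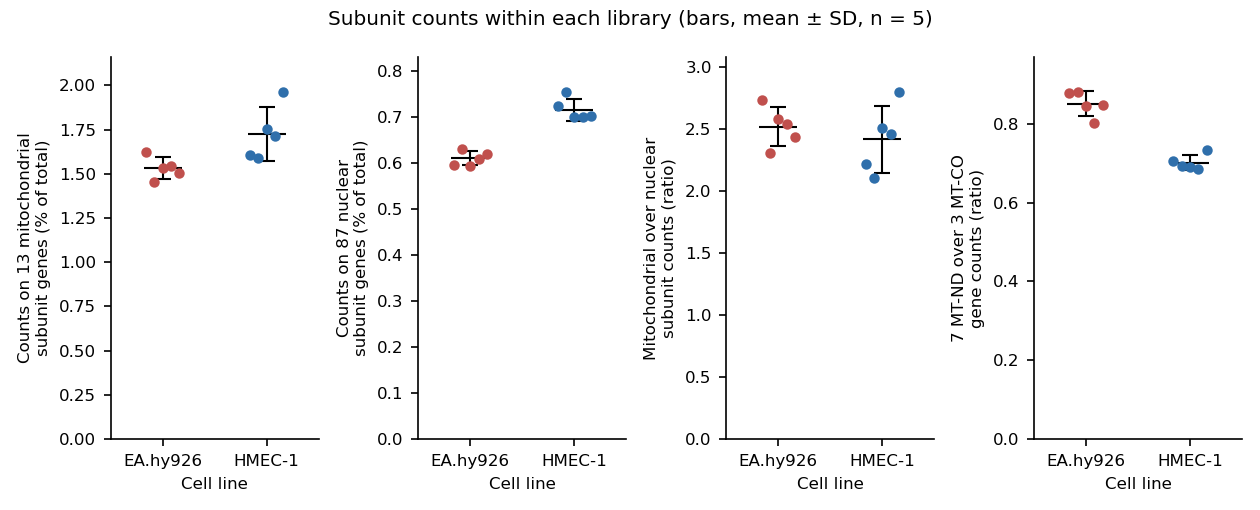
Points are single libraries and bars the mean ± SD of 5 for the share of counts on mitochondrial and on nuclear subunit genes, the ratio between them, and the ratio of MT-ND to MT-CO counts. The lines are apart for the nuclear share and the MT-ND to MT-CO ratio and overlap for the other measures.

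By level per kilobase of exon, the mitochondrial genes other than MT-ATP8 held the first 12 places in both lines. MT-CO1 led with 2828 CPM per kb in EA.hy926 against 3236 CPM per kb in HMEC-1, followed by MT-CO2 and MT-CO3. The highest nuclear member was ATP5F1B, the catalytic beta subunit of ATP synthase, with 470.1 and 382 CPM per kb, and after it came NDUFS5 and NDUFA1. Exon length counts all annotated exons of a gene, so a gene with long rarely used exons appears lower per kilobase.

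Complex I is the largest complex, with a peripheral arm that holds flavin and iron-sulfur clusters and a membrane arm that pumps protons. Of its 36 nuclear members, 34 were tested, and 20 were lower, 7 higher and 7 not called in EA.hy926, with a median log2FC of −0.20. These are 58.8% lower and 20.6% higher, beside 43.3% and 42.6% of all genes tested. Among the 7 nuclear core subunits, which have bacterial counterparts, 6 were tested, with 4 lower (66.7%) and 1 higher (16.7%). Among 29 accessory subunits 28 were tested, with 16 lower (57.1%) and 6 higher (21.4%).

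NDUFS1, the large iron-sulfur core subunit of the peripheral arm, had 66.3, 64.8, 68.1, 67.7 and 68.6 CPM in EA.hy926, while HMEC-1 had 140, 134, 142, 142 and 139 CPM, with no overlap. Its log2FC was −1.05 ± 0.03 (adjusted p = 2.61e-19), and it lies at chr2:206114817-206159509. NDUFB6, an accessory subunit of the membrane arm at chr9:32553001-32573184, had 20.1, 19.5, 17.1, 21.3 and 20.3 CPM against 51.9, 53.2, 51.6, 47.6 and 47.8 CPM, with a log2FC of −1.36 ± 0.05 (adjusted p = 1.74e-16). NDUFA6, an accessory subunit of the peripheral arm at chr22:42085526-42090884, had 37.3, 39.2, 39.0, 38.5 and 39.2 CPM against 79.4, 85.7, 79.4, 74.0 and 74.0 CPM, with a log2FC of −1.02 ± 0.04 (adjusted p = 2.44e-16). For each of the 3 genes every EA.hy926 library was under every HMEC-1 library.

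Other complex I subunits with lower levels included NDUFA10 at −0.84, NDUFC1 at −0.63, NDUFS4 at −0.61 and NDUFS6 at −0.59, each without overlap of the libraries. NDUFS5, the nuclear complex I gene with the most counts per kilobase, had 96.2 to 99.1 CPM in EA.hy926, while HMEC-1 had 115 to 136 CPM (log2FC −0.35 ± 0.04, adjusted p = 1.83e-08). Among the genes higher in EA.hy926, NDUFB4, a membrane arm subunit, had a mean of 137 against 78.6 CPM and a log2FC of 0.81 ± 0.03 (adjusted p = 3.28e-15). NDUFA13 was equally high at 0.81 ± 0.20 (adjusted p = 0.000853), on 35 to 72 against 28 to 47 counts per library, and its libraries overlapped. NDUFV1, the flavin-bearing core subunit, was higher by 0.20 ± 0.03 (adjusted p = 8.59e-06), with 126 against 109.5 CPM. NDUFS8 and NDUFA5 were not called, at −0.02 and −0.04.

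Complex II, which also belongs to the tricarboxylic acid cycle, had 2 members higher and 2 lower. The shares were 50% each, beside 42.6% higher and 43.3% lower of all genes tested. The flavoprotein SDHA had 223, 223, 253, 250 and 249 CPM in EA.hy926, while HMEC-1 had 183, 182, 183, 182 and 184 CPM, and its log2FC was 0.39 ± 0.03 (adjusted p = 6.48e-10). The membrane anchor SDHC had 56.7, 56.0, 54.9, 56.8 and 56.6 CPM against 112, 113, 112, 111 and 110.1 CPM, a log2FC of −0.99 ± 0.02 (adjusted p = 2.39e-19). In both genes the lines were apart. The iron-sulfur subunit SDHB was lower at −0.44 ± 0.04 and the other anchor SDHD higher at 0.29 ± 0.03. Another listed gene covers 47.7% of the coding bases of SDHD, so the level of SDHD is uncertain. Pseudogenes of SDHA took 10.5 counts per 100 of SDHA in EA.hy926 against 24.4 per 100 in HMEC-1, so the split of its reads is uncertain.

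Of the 9 nuclear members of complex III, 4 were lower (44.4%, beside 43.3% of all genes tested), 2 higher (22.2%, beside 42.6%) and 3 not called. The lowest was the small subunit UQCR10, with 30.5, 32.2, 29.0, 27.9 and 30.8 CPM against 57.1, 61.5, 52.7, 55.8 and 51.7 CPM and a log2FC of −0.89 ± 0.05 (adjusted p = 1.1e-13). The highest was the core protein UQCRC2, with 201, 206, 210, 204 and 206 CPM against 153, 158, 151.5, 155 and 155 CPM and a log2FC of 0.41 ± 0.02 (adjusted p = 4.51e-13). Its partner in the core, UQCRC1, went the other way at −0.39 ± 0.03, and the Rieske iron-sulfur protein UQCRFS1 was higher at 0.27 ± 0.03. UQCRH, the hinge protein, was lower at −0.24 ± 0.04 (125 to 134 against 142 to 170 CPM). The related UQCRHL had 4.27 to 5.24 against 4.64 to 5.88 CPM and was not called at −0.19 ± 0.09 (adjusted p = 0.0656). The log2FC of UQCRHL was called lower without EA.hy926 replicate 2 (−0.23, adjusted p = 0.0336), HMEC-1 replicate 1 (−0.24, adjusted p = 0.0254) or HMEC-1 replicate 3 (−0.24, adjusted p = 0.0247), and on library totals (−0.32, adjusted p = 0.00284).

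Complex IV uses several subunits that exist in a general and a tissue-restricted form, and the general forms carried nearly all the counts in both lines. Of 18 nuclear members, 14 were tested, with 9 lower, 2 higher and 3 not called. These are 64.3% lower and 14.3% higher, beside 43.3% and 42.6% of all genes tested. COX7A1, the form typical of heart and skeletal muscle, was counted at 0.135, 0, 0.199, 0.0781 and 0.162 CPM in EA.hy926, while HMEC-1 had 1.31, 1.86, 1.34, 1.59 and 0.942 CPM. These are 0 to 7 and 36 to 76 counts per library, without overlap, and the log2FC was −3.57 ± 0.33 (adjusted p = 2.13e-09). COX7A2, the general form, was also lower, with 68.7, 73.5, 71.1, 73.4 and 72.7 CPM against 127, 139, 124, 121 and 117 CPM and a log2FC of −0.80 ± 0.04 (adjusted p = 1.46e-14). COX7A2L, a related protein known for its part in joining complexes III and IV, was close between the lines, at 101 to 109 and 94.7 to 103 CPM. The log2FC of COX7A2L, 0.06 ± 0.03 (adjusted p = 0.0437), was not called when any HMEC-1 library or EA.hy926 replicate 2 was left out, and was −0.07 (adjusted p = 0.0243) on library totals.

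COX6B2, the testis form of subunit VIb, had 2 to 10 against 36 to 57 counts per library, or 0.0541, 0.301, 0.256, 0.104 and 0.135 CPM against 1.03, 1.05, 1.24, 1.01 and 1.26 CPM. The lines were apart, with a log2FC of −2.72 ± 0.28 (adjusted p = 1.17e-08). Its coding bases are all shared with ENSG00000267706, another gene listed as protein-coding, which had no count, so the number of its reads is uncertain. The general form COX6B1 was not called, at 0.04 ± 0.04 (adjusted p = 0.267) and 86.0 to 89.7 against 80.3 to 95.2 CPM. The log2FC of COX6B1 was called higher without HMEC-1 replicate 2 (0.07, adjusted p = 0.0233) and lower on library totals (−0.09, adjusted p = 0.0225). COX4I1, the general form of the regulatory subunit IV, had 253 to 269 against 242 to 268 CPM (log2FC 0.04 ± 0.03, adjusted p = 0.169), and on library totals the log2FC of COX4I1 was −0.09 and called lower (adjusted p = 0.00354). COX4I2, the form known from lung and low oxygen, had counts in only 1 EA.hy926 library (0.0854 CPM) and 2 HMEC-1 libraries (0.098 and 0.0262 CPM), at most 4 counts, and was not tested. COX6A2, COX7B2 and COX8C, forms of muscle or testis, had 0 counts in all 10 libraries, where 3 counts correspond to 0.0651 to 0.0904 CPM.

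Among the other general subunits, COX7B was lower at −0.24 ± 0.05, NDUFA4 at −0.20 ± 0.04 and COX8A at −0.49 ± 0.10, while COX5A was higher at 0.32 ± 0.03 (120.3 to 137 against 97.0 to 105 CPM). Another listed gene covers 55.1% of the coding bases of COX8A, so the level of COX8A is uncertain. COX6A1 was not called, at −0.20 ± 0.14 (adjusted p = 0.199), with 4.32 to 7.23 against 4.27 to 7.6 CPM. The log2FC of COX6A1 was called lower without EA.hy926 replicate 2 (−0.33, adjusted p = 0.0305), without HMEC-1 replicate 3 (−0.32, adjusted p = 0.0292), on library totals (−0.33, adjusted p = 0.0345) and without a filter (−0.22, adjusted p = 0.0268). Its pseudogenes took 57.9 counts per 100 of COX6A1 in EA.hy926 against 105 per 100 in HMEC-1. NDUFA4L2, a relative of NDUFA4 that is induced by low oxygen, had 0.569 to 0.866 against 0.366 to 0.913 CPM and was not called (log2FC 0.37 ± 0.23, adjusted p = 0.144), and C15orf48, the relative that replaces NDUFA4 in inflammation, had at most 1 count in any library.

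**Figure D4:**
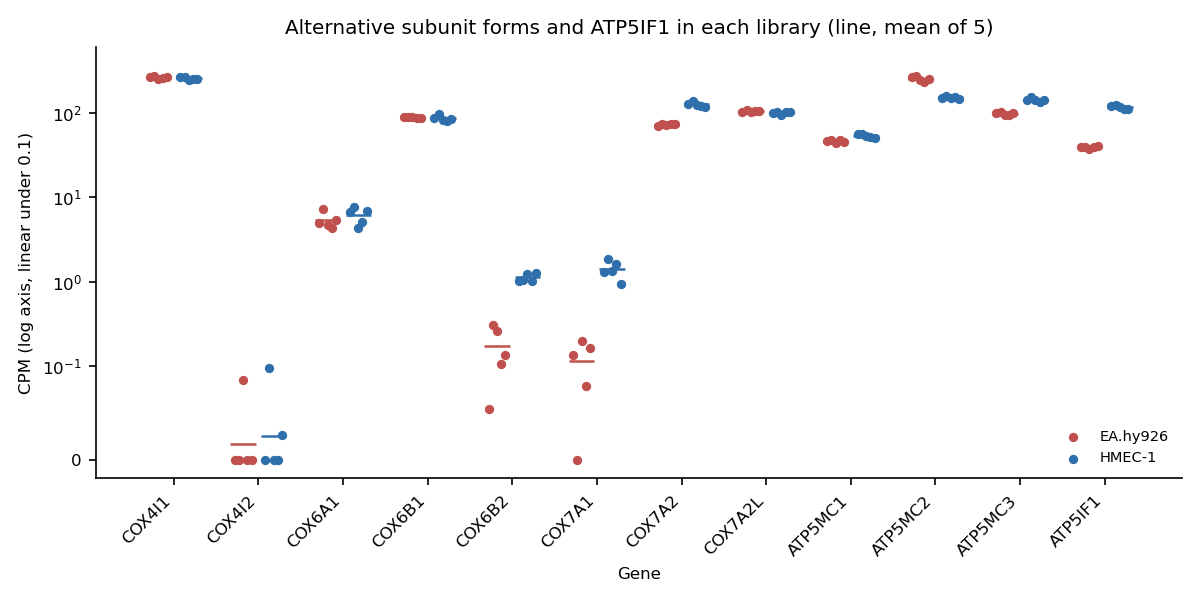
Points are the CPM of single libraries and bars the means of 5, on a log axis that is linear under 0.1. COX7A1 and COX6B2 lie far under their general forms in both lines and lower in EA.hy926, and ATP5IF1 is apart between the lines.

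For complex V, 12 of 18 tested nuclear members were lower, 3 higher and 3 not called, with a median log2FC of −0.36. These are 66.7% lower and 16.7% higher, beside 43.3% and 42.6% of all genes tested. ATP5IF1, the small protein that inhibits ATP hydrolysis by the synthase, had 39.2, 39.3, 37.0, 39.7 and 39.8 CPM in EA.hy926, while HMEC-1 had 120.6, 124, 117, 111 and 109 CPM. The lines were far apart, at 2.98-fold higher in HMEC-1, with a log2FC of −1.58 ± 0.04 (adjusted p = 6.59e-20). Of the catalytic head, the alpha subunit ATP5F1A was lower at −0.43 ± 0.02, the gamma subunit ATP5F1C at −0.60 ± 0.03 and the delta subunit ATP5F1D at −0.26 ± 0.04. The beta subunit ATP5F1B was higher, with 1035, 1054, 1054, 1057 and 1062 CPM against 863, 873, 858, 846 and 839 CPM and a log2FC of 0.30 ± 0.02 (adjusted p = 2.79e-11). The epsilon subunit ATP5F1E was higher at 0.37 ± 0.07. Of the peripheral stalk, ATP5PB, ATP5PD, ATP5PF and ATP5PO were lower, at −0.31, −0.46, −0.41 and −0.50. ATP5PO rests on 135 to 196 against 219 to 369 counts per library, and its lines overlapped in CPM. Other listed genes cover 60.6% of its coding bases, so its level is uncertain.

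The c-ring, through which protons turn the synthase, is built from a single mature protein that 3 genes encode, and these genes differed in direction. ATP5MC2 had 263, 270.2, 246, 232 and 249.5 CPM in EA.hy926, while HMEC-1 had 150.2, 159, 150, 155 and 147 CPM, with a log2FC of 0.73 ± 0.04 (adjusted p = 2.36e-14). ATP5MC3 had 97.8, 103, 95.0, 93.2 and 97.9 CPM against 143, 155, 141, 135 and 139.7 CPM, a log2FC of −0.55 ± 0.03 (adjusted p = 2.74e-12). ATP5MC1 had 43.8 to 47.7 against 49.9 to 56.3 CPM, a log2FC of −0.22 ± 0.04 (adjusted p = 1.54e-05). None of the 3 overlapped between the lines. ATP5MF, a membrane subunit, had 7.83 to 9.24 against 12.97 to 26.3 CPM and a log2FC of −1.08 ± 0.13 (adjusted p = 1.63e-07), and 44.5% of its coding bases lie in a read-through transcript with PTCD1. Leaving out HMEC-1 libraries in turn moved the log2FC of ATP5MF between −1.19 and −0.91, the latter without HMEC-1 replicate 2. ATP5MG was not called at 0.10 ± 0.06 (adjusted p = 0.15), but without HMEC-1 replicate 2 the log2FC of ATP5MG was 0.16 and called higher (adjusted p = 0.00528). The related ATP5MGL had a single count in all libraries, and the read-through ATP5MF-PTCD1 had at most 2 counts per library.

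A group of nuclear members had far fewer counts than their partners in the same complexes, and these were mostly genes whose coding sequence lies in other listed genes. Where at least 15% of the coding bases were covered by exons of another gene in the table, the mean over both lines had a median of 4.07 CPM over 20 members, and 18 were under 12 CPM. In the other 67 members the median was 66.9 CPM, and 6 were under 12 CPM, namely COX4I2, COX7A1, COX7B2, COX8C, ATP5MGL and UQCRHL, which are tissue-restricted forms or copies. The 18 also include such entries, namely the tissue-restricted COX6A2 and COX6B2 and the read-through ATP5MF-PTCD1. Whether the overlap lowers the counts was not tested. Both limits were chosen after the levels were seen.

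NDUFV2, an iron-sulfur core subunit of complex I, had 3 to 13 against 8 to 17 counts per library and was not tested, with 84.7% of its coding bases in ENSG00000265257, a lncRNA on the same strand with 0 CPM. NDUFA7 had 4 to 9 and 5 to 12 counts, was not tested, and shares 78.3% of its coding bases with RPS28 and ENSG00000167774. NDUFB8 had 0.576 against 0.69 CPM at 85.2% shared, and NDUFA13 1.6 against 0.911 CPM at 55.2%. NDUFS7, at 0.761 against 1.38 CPM and 61.5%, and ATP5ME, at 0.448 against 0.35 CPM and 44%, are covered by genes of the opposite strand only. SDHD, at 72.6 against 59.2 CPM with 47.7% shared, and ATP5MF were the exceptions above 12 CPM. The levels of all 20 are uncertain, since the strand and overlap settings of the counting are not given in the sources used here. For NDUFV2, the pseudogene NDUFV2P1 had 1.94 and 2.32 CPM, more than the gene's own 0.212 and 0.266 CPM. With these 20 members left out, 40 nuclear members were lower and 12 higher, and the median log2FC was −0.24.

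**Figure D5:**
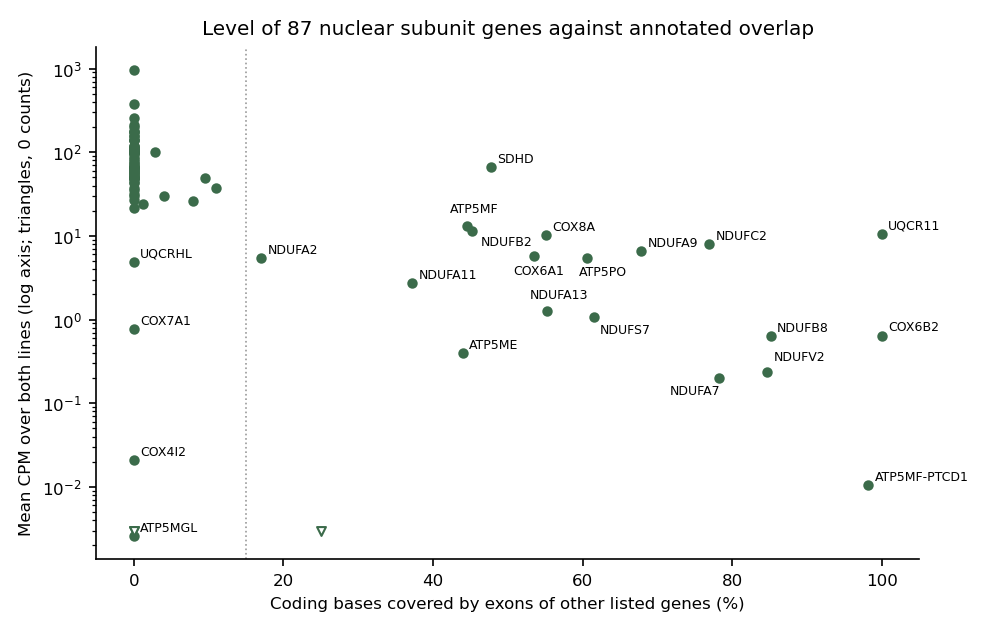
Each point is a nuclear subunit gene by the share of its coding bases that exons of other listed genes cover and its mean CPM over both lines on a log axis, with triangles for the 3 genes without a count and a dotted line at 15%. To the right of the line 18 of 20 genes are under 12 CPM, and to the left 6 of 67.

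Promoters of respiratory genes are known for binding sites of NRF1, of ETS factors such as GABPA, of YY1 and of SP1. RefSeq windows of 300 bases, 250 before and 50 after the start of transcription (GRCh38.p14), were held for 69 of the 87 nuclear members. A match is a match of letters on either strand, not a bound site. Matches were counted per gene, in any of its windows. The NRF1 letters GCGCNTGCG were in 25 of the 69 (36.2%), against 9.01% of all 27305 genes with a window and 16.7% of 10577 protein-coding genes tested. The YY1 letters AAGATGGC were in 17.4%, 3.52% and 6.27% of the same sets, and the ETS letters CCGGAAG in 30.4%, 12.2% and 21.9%. The SP1 letters GGGCGG were in 63.8%, 48.3% and 76.7%, and the E-box letters CACGTG in 10.1%, 8.78% and 12.5%. The TATA letters TATAAA were in 10.1%, 14.0% and 8.70%. Of 14 members with a window that were higher in EA.hy926, 6 held the NRF1 letters and 1 the YY1 letters, and of 36 that were lower, 11 and 8 did.

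The windows of the 2 lowest and the 2 highest members with at least 10 CPM in both lines are shown, as the promoters of the nuclear genes that differed most at levels free of the overlaps described above. Capitals mark NRF1, ETS, YY1 and SP1 letters on either strand.
ATP5IF1, chr1:28235874-28236173, plus strand: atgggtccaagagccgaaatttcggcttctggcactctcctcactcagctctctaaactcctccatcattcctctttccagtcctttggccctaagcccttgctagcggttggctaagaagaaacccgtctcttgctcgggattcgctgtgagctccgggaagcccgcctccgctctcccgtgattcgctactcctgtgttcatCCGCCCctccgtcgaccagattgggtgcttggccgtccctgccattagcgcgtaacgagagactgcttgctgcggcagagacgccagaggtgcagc
NDUFB6, chr9:32573110-32573409, minus strand: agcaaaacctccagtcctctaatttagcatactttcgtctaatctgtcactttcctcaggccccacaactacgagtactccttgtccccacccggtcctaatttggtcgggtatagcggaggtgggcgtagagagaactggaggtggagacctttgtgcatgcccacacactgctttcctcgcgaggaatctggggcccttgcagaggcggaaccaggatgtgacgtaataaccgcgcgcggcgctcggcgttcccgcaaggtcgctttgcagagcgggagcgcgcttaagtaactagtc
ATP5MC2, chr12:53676034-53676333, minus strand: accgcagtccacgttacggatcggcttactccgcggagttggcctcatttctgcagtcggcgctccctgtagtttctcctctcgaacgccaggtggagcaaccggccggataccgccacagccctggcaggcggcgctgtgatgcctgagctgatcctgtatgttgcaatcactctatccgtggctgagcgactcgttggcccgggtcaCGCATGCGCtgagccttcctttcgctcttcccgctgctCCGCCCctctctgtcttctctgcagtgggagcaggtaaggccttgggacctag
NDUFB4, chr3:120596086-120596385, plus strand: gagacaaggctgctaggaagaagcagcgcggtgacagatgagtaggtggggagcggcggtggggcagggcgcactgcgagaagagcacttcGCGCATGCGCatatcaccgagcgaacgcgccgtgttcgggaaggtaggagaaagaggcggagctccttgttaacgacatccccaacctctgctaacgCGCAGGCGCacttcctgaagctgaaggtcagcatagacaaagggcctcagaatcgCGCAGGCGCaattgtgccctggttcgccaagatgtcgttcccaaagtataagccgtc
NRF1 letters are in the windows of NDUFB4 and ATP5MC2 and not in those of ATP5IF1 and NDUFB6, and they are also in windows of other members lower in EA.hy926, such as NDUFA6 and UQCR10. NDUFB6 holds none of the 4 motifs. NRF1 itself was lower in EA.hy926, with 17.9 to 19.7 against 24.0 to 26.7 CPM and a log2FC of −0.42 ± 0.04 (adjusted p = 1.32e-08). A protein-coding gene on the other strand started within 1000 bases upstream of 20 of the 87 nuclear members (23.0%), against 10.8% of 13012 protein-coding genes tested.

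The members past both thresholds lie on different chromosomes apart from COX7A1 and COX6B2 on chromosome 19. Among the genes tested within 1000000 bases of NDUFB6, 13 of 16 were also lower in EA.hy926 and 3 were higher, with a median log2FC of −0.90, where 43.3% of all genes tested were lower and 42.6% higher. Around NDUFS1 9 of 11 were lower and 2 higher (median −0.50), around ATP5IF1 25 of 39 were lower and 8 higher (median −0.42), and around NDUFA6 24 of 42 were lower and 13 higher (median −0.25). Around COX7A1 27 of 51 were lower and 16 higher (median −0.52), and around ATP5MF 19 of 45 were lower and 15 higher (median −0.10), a share of lower genes close to that of all genes. Around COX6B2 28 of 43 were higher and 9 lower (median 0.32).

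Proteins that assemble the complexes but do not stay in them were compared as lists outside the subunit rule. Of 48 assembly factors tested, 23 were higher and 17 lower in EA.hy926, with a median log2FC of 0.16. These are 47.9% and 35.4%, beside 42.6% and 43.3% of all genes tested. Factors of complex I were 9 higher and 6 lower of 16, with NUBPL, which delivers iron-sulfur clusters, highest at 1.05 ± 0.05 and NDUFAF2 lowest at −0.74 ± 0.06. Of the complex IV factors 9 were higher and 5 lower of 19, from CMC2 at −0.56 to CMC1 at 0.83. Of the complex III factors 3 were higher and 2 lower of 6, with UQCC1 at 1.35 ± 0.03 and UQCC2 at −0.93 ± 0.06. The complex V factors were 2 lower and 1 not called of 3, with ATPAF1, which holds the beta subunit during assembly of the head, at −1.39 ± 0.04 (25.3 ± 1.33 against 66 ± 1.65 CPM, SD, n = 5).

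SDHAF3, a factor for the iron-sulfur subunit of complex II, had 0 counts in all 5 EA.hy926 libraries and 71 to 123 counts in HMEC-1 libraries, or 2.03, 2.01, 2.67, 2.31 and 2.17 CPM. With 3 counts in a library as the floor, its level in EA.hy926 was at least 24.7-fold lower (adjusted p = 9.75e-13). Of the other 3 complex II factors, SDHAF2 and SDHAF4 were higher (0.78 and 0.28) and SDHAF1 lower (−0.56).

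Of 33 tested genes for the replication of mitochondrial DNA and for the synthesis, processing and turnover of its RNA, 13 were higher and 12 lower. These are 39.4% and 36.4%, near the 42.6% and 43.3% of all genes tested. TFAM, which packs the DNA and starts transcription, was not called at −0.04 ± 0.03 (105 to 111 against 107 to 115 CPM, adjusted p = 0.135). POLRMT, the mitochondrial RNA polymerase, was higher at 0.79 ± 0.04, with 60.4, 56.1, 62.9, 66.6 and 63.7 CPM against 36.2, 34.4, 35.9, 37.5 and 34.6 CPM. TOP1MT, a mitochondrial topoisomerase, was highest at 1.01 ± 0.04, FASTKD1, a mitochondrial RNA-binding protein, was lowest at −1.005 ± 0.05, and LRPPRC, which stabilizes mitochondrial messenger RNA, was higher at 0.10 ± 0.03 (adjusted p = 0.00119). Of 10 tested regulators of mitochondrial biogenesis, 4 were higher and 4 lower (40% each), also near the shares of all genes tested. PPARGC1A, the coactivator PGC-1α, had at most 2 counts in any library and was not tested, while PPARGC1B was higher at 1.06 ± 0.12 on 143 to 200 against 74 to 98 counts, and CREB1 was lower at −0.87 ± 0.03.

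Mitochondrial ribosomal proteins build the ribosome that translates the mitochondrial messages. Of these, 42 of 74 tested were lower and 24 higher, with a median log2FC of −0.16. The shares were 56.8% and 32.4%, beside 43.3% and 42.6% of all genes tested. The extremes of the ribosomal proteins were MRPL14 at −1.25 ± 0.05 and MRPL15 at 1.56 ± 0.03. Genes of the tricarboxylic acid cycle were 5 higher and 5 lower of 13 (38.5% each), with a median of 0.00. They ran from SUCLA2 at −1.15 ± 0.03 to IDH3B at 0.38 ± 0.03, and citrate synthase, CS, was at 0.38 ± 0.02. Other abundant mitochondrial proteins were 8 higher and 8 lower of 16 (50% each). TOMM20, an import receptor, was at 0.13 ± 0.02 and HSPA9, the matrix chaperone, at 0.93 ± 0.03. Within this list SLC25A4, the muscle form of the ADP/ATP carrier, was lowest at −3.12 ± 0.07, with 2.84, 3.28, 2.62, 2.89 and 2.88 CPM against 28.1, 26.5, 23.2, 24.8 and 24.0 CPM, and the forms SLC25A5 and SLC25A6 were higher at 0.88 and 0.41.

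Of 9 electron carriers and feeding enzymes, 2 were higher and 3 lower (22.2% and 33.3%, beside 42.6% and 43.3% of all genes tested). Cytochrome c itself, CYCS, was lower at −0.56 ± 0.03 (139 to 146 against 202 to 227 CPM), while CYC1, cytochrome c1 of complex III, was higher at 0.22 ± 0.03. ETFDH, which passes electrons from fatty acid oxidation to ubiquinone, was lowest at −1.33 ± 0.05, and SQOR, which feeds electrons from sulfide, was highest at 0.57 ± 0.05. Of the uncoupling proteins, UCP2 was lower at −0.18 ± 0.05 and UCP3 was not called at 0.13 ± 0.30.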

How the data were processed

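Poly(A)-selected RNA of 5 EA.hy926 and 5 HMEC-1 libraries was sequenced, aligned to GRCh38 with HISAT2 after trimming with fastp and counted per gene. The methods text names HTSeq and the submitters' processing notes name featureCounts, and the annotation release and strand setting are not given in the sources used here. The values the authors deposited are raw counts per gene. GENCODE 44 gave symbols for 56434 of 60448 identifiers, and bedtools 2.31.1 the overlaps.

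Genes were kept by filterByExpr (minimum count 10, minimum total 15), scaled by TMM and tested in edgeR 4.0.16 (R 4.3.3) by the quasi-likelihood functions glmQLFit and glmQLFTest, with Benjamini-Hochberg adjustment over 16310 genes. The SE of a log2FC is its size over the square root of F. Alternatives were DESeq2 1.42.0, limma 3.58.1 with voom, other filters, RLE factors, library totals, scaling without mitochondrial genes, a replicate block and libraries left out in turn. The labels' sample titles gave line and replicate number.

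Members and gene lists were chosen with earlier results of these data known. Genes named were all mitochondrial members, those past both thresholds, those not tested, the extremes and the highest per kilobase of each complex, forms of a subunit, and the extremes of each list with set regulators and markers of mass. Other subunits and listed genes, NDUFB4 among them, the nuclear copies and the ratios within libraries were named after their values were seen. Counting error alone is covered by the floor of 3 counts.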

Additional observations from a re-analysis of the deposited data

Results flagged for a closer look

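In 108 sets of 5 libraries (the members named by the rule and 4 shares and ratios of counts, in each line), the highest or lowest library lay far from the other 4, by Dixon's test, in 7, and chance alone flags about 1 set in 20. HMEC-1 replicate 5 was high for MT-CO3 (2102 CPM, the others 1712 to 1808 CPM), and it also had the highest share of counts on mitochondrial members (1.96%). EA.hy926 replicate 1 was low for ATP5F1B (1035 CPM, the others 1054 to 1062 CPM), and EA.hy926 replicate 3 was low for ATP5IF1 (37.0 CPM, the others 39.2 to 39.8 CPM). The other 4 sets rest on at most 4 counts in a library, namely COX4I2 in EA.hy926 (0.0854 CPM) and in HMEC-1 (0.098 CPM), ATP5MGL in EA.hy926 (0.026 CPM) and ATP5MF-PTCD1 in HMEC-1 (0.0262 CPM).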

How the results depend on the processing

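Over every alternative run, the nuclear members were 12 to 17 higher and 40 to 57 lower (12 and 40 where members with at least 15% of coding bases shared were left out, chosen after seeing the data), and 5 to 9 members were lower past both thresholds with 0 higher. On library totals the median log2FC was −0.13 over mitochondrial and −0.37 over nuclear members, 1 mitochondrial member was higher, and these changed sign: the log2FC of ATP5MG (−0.0342), log2FC of COX4I1 (−0.0927), log2FC of COX6B1 (−0.0905), log2FC of COX7A2L (−0.0714), log2FC of MT-ND4 (−0.124), log2FC of MT-ND4L (−0.0764) and log2FC of MT-ND6 (−0.127). With DESeq2, 2 mitochondrial members were higher, where the log2FC of MT-ND1 and the log2FC of MT-ND3 had adjusted p of 0.0887 and 0.054. Without a filter MT-ND4 was at −0.0090 and MT-ND6 at −0.0126, and without EA.hy926 libraries 4 and 5, an alternative chosen after seeing the data, the log2FC of MT-ND5 was 0.0649. Per kilobase of exon, the ratio of mitochondrial to nuclear counts was 6.16 in EA.hy926 and 5.71 in HMEC-1 and the mitochondrial share 6.63% and 7.37%, and without members sharing over 10% of exonic bases the ratio was 3.07 and 2.94. The cause of these shifts was not tested beyond what each alternative changes by construction.

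With each library left out in turn, nuclear members were 15 to 17 higher and 46 to 49 lower, and mitochondrial members 3 to 4 higher and 4 lower. The log2FC of MT-ND4 ranged from −0.0387 to 0.0617, the log2FC of MT-ND4L from −0.0167 to 0.166, the log2FC of MT-ND5 from −0.0648 to 0.0321 and the log2FC of MT-ND6 from −0.0623 to 0.0918. Of 42 named members tested, 27 kept direction and call in all alternatives. Over all genes, libraries of the same replicate number did not deviate together (correlations −0.0228 to 0.0389). This does not settle whether the numbers pair the samples for some genes. Replicate 2 was the highest library of both lines for ATP5F1E (219.7 and 190 CPM) and COX6C (104 and 124.5 CPM), among other members. For SDHA and ATP5F1B this was not so, and the reason was not tested. With the replicate block, 17 nuclear members were higher and 47 lower, 4 mitochondrial members higher and 4 lower, 7 and 0 members passed both thresholds, and the medians were −0.24 and 0.01. The block added a call for the log2FC of ATP5MG (0.105, adjusted p = 0.0142).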
